A study of Mus musculus with 8 samples.

Results

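Endothelial cells line the blood vessels of the liver, and 10 genes that mark them were examined in whole livers of MøFoxO1-KO mice and their WT littermates with diet-induced nonalcoholic steatohepatitis (NASH). The genes were Stab1, Stab2, Lyve1, Clec4g, Pecam1, Cdh5, Kdr, Fcgr2b, Oit3 and Cd34. They were taken by symbol as known markers of sinusoidal or capillary endothelium, out of 46517 genes in the count table. The rule used no measured value, but earlier results of these data were known when the genes were chosen. All 10 passed the filter on low counts that left 13278 genes for testing. No member of the set differed between the genotypes beyond the spread between mice. In 1 WT mouse, replicate 23, the level of 9 of the 10 genes was below 50% of the median of the other WT mice.

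Liver sinusoids are lined by a specialized endothelium with open pores and no continuous basement membrane, so that plasma reaches the hepatocytes directly. These cells take up waste molecules from blood through scavenger receptors, lectins and Fc receptors, and they carry the hyaluronan receptor LYVE1, which elsewhere marks lymphatic vessels. Adhesion molecules such as PECAM1 and VE-cadherin and the vascular endothelial growth factor (VEGF) receptor KDR are shared with endothelium of other vessels. In chronic liver injury the sinusoidal cells are known to lose their pores and to take on features of continuous capillaries, with CD34 among the markers used for that state.

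Whole liver RNA of 8 male C57BL/6 mice was sequenced after selection of polyadenylated transcripts, with 4 mice per genotype. MøFoxO1-KO mice were FoxO1 loxP/loxP-Lyz2-Cre, in which the Lyz2 promoter drives Cre recombinase in myeloid cells, and WT littermates were FoxO1 loxP/loxP without Cre, so both groups carried the floxed alleles. All mice began the NASH diet when 6 weeks old, received it for 25 weeks, and were killed at 31 weeks after a fast of 16 hours. The deletion is aimed at macrophages and other myeloid cells of the whole body and not at endothelium, and no group on another diet was analysed here. Expression of endothelial genes was compared to ask whether it differed in livers of mice without myeloid FoxO1.

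Total counts were 15253218 to 18025481 per mouse. Whole liver Foxo1 was 303 to 459 normalized counts in WT and 290 to 429 in MøFoxO1-KO livers (log2 fold change -0.17, adjusted P = 0.686 by edgeR with Benjamini-Hochberg adjustment), which includes transcripts from every liver cell type. On the first principal component (34.2% of the variance), WT replicates 22 to 25 were at -20.2, -65.59, -7.9 and -13.63. MøFoxO1-KO replicates 26 to 29 were at 14.91, 42.97, 8.19 and 41.24, so this component also set the genotypes apart. WT replicate 23 lay farthest out, on the WT side, and the comparison of genotypes is also given without it. Dixon's outlier ratio, taken for each endothelial gene within each genotype, flagged 0 of 20 groups. Normalized counts are counts scaled by TMM library size, a scaling that corrects for depth and composition. Differences were tested by the quasi-likelihood test of edgeR, with Benjamini-Hochberg (BH) adjustment over all tested genes, and a gene counted as called when its adjusted P was under 0.05 and its fold change exceeded 1.5 on the log2 scale in either direction. Fold changes are MøFoxO1-KO over WT, and values by mouse follow the order of WT replicates 22, 23, 24 and 25 and MøFoxO1-KO replicates 26, 27, 28 and 29. In RNA of whole liver, fewer endothelial cells and less RNA of these genes per cell cannot be told apart.

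Stab1 and Stab2 encode stabilin-1 and stabilin-2, the large scavenger receptors of sinusoidal endothelium, and stabilin-1 is also made by some macrophages. Stab1 (ENSMUSG00000042286, chromosome 14 from 31139013 to 31168641 on GRCm38) had 891, 276, 868 and 1026 normalized counts in WT livers and 657, 966, 1341 and 629 in MøFoxO1-KO livers. The groups overlapped, with the highest and the next to lowest Stab1 levels both in MøFoxO1-KO mice and the lowest in WT replicate 23. Its log2 fold change was 0.23 ± 0.37 (SE) with a 95% interval from -0.6 to 1.06 (edgeR, BH-adjusted P = 0.796). Without WT replicate 23 this became -0.05, from -0.61 to 0.52 (edgeR, BH-adjusted P = 0.956). Stab1 shares its locus with Nt5dc2 on the opposite strand, which had 1613 counts over the 8 mice against 6672 for Stab1, and the strand setting of the counting is not given in the sources used here.

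Stab2 (ENSMUSG00000035459, chromosome 10 from 86841198 to 87008025) was the steadiest gene among the WT mice, at 1140, 976, 1026 and 1300 normalized counts, and MøFoxO1-KO livers had 1419, 1193, 1627 and 956. The groups overlapped, since MøFoxO1-KO replicate 29 lay below every WT mouse. The log2 fold change of Stab2 was 0.23 ± 0.17 (SE) with an interval from -0.15 to 0.61 (edgeR, BH-adjusted P = 0.549), and 0.17 without WT replicate 23. The stabilins parted in that WT mouse. Stab1 was at 31% of the median of the other WT livers and Stab2 at 85.6%, so the log2 ratio of Stab1 to Stab2 counts was -1.82 there and -0.36, -0.24 and -0.34 in the other WT mice. In MøFoxO1-KO mice this ratio was -1.11, -0.3, -0.28 and -0.6, and the group means of -0.69 ± 0.75 (SD, n = 4) and -0.57 ± 0.39 (SD, n = 4) differed by less than either SD.

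Clec4g was the gene lowest in WT replicate 23 relative to other WT mice, and Cd34 had the lowest expression. Their promoters are shown with those of both stabilins. Each is the 250 bases before the annotated start, written 5′ to 3′ on the strand of the gene, from RefSeq on GRCm38.p6: Stab1 at chr14:31168642-31168891 (minus strand), Stab2 at chr10:87007943-87008192 (minus strand), Clec4g at chr8:3720652-3720901 (minus strand) and Cd34 at chr1:194938571-194938820 (plus strand). The Stab2 window lies partly inside the gene as counted, which reaches 87008025. Capitals mark CAGGAA, a core sequence bound by ETS factors, the family of Erg and Fli1, or its reverse complement TTCCTG.
Stab1: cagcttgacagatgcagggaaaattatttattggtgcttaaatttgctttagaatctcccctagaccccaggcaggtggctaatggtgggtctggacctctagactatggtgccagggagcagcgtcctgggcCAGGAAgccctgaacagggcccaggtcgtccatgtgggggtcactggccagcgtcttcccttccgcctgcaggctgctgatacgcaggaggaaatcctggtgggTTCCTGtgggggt
Stab2: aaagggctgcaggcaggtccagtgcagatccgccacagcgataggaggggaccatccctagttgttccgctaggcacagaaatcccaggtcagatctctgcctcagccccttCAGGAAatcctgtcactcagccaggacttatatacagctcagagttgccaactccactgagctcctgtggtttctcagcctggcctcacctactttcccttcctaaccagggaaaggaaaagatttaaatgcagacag
Clec4g: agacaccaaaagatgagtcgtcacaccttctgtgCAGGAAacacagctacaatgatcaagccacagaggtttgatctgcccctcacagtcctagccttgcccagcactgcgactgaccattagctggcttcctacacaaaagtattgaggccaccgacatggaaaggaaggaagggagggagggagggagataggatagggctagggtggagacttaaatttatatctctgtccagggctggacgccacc
Cd34: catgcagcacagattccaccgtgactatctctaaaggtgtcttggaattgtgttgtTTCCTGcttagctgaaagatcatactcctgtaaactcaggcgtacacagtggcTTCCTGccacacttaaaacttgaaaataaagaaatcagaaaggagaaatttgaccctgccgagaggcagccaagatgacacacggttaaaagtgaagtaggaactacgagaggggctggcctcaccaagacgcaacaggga

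RefSeq promoters were matched for 6 of the 10 genes, those above and Kdr and Fcgr2b. There was no entry for Lyve1, Pecam1, Cdh5 and Oit3. Over 250 bases before to 50 after the start and on both strands, CAGGAA was present in 4 of the 6 promoters and in 30.6% of all 32851 promoters of the table. The 4 are those printed, and the Kdr and Fcgr2b promoters, which are not printed, held none. The 250 bases before the Fcgr2b start, 170976072 to 170976321, lie wholly inside the gene as counted, which reaches 170976547. The Stab1 and Cd34 promoters each held 2 matches and the Stab2 and Clec4g promoters 1 each. GATAAG, a core of GATA factors, was found in 1 of the 6 and in 7.44% of all promoters. That match was in Cd34 and lay after the start, beyond the bases printed. GTAAACA, the core of forkhead factors such as FoxO1, was in 0 of the 6 and in 3.65% of all promoters. These matches describe letters in the window only.

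Clec4g encodes LSECtin, a lectin of sinusoidal endothelium. Clec4g (ENSMUSG00000074491, chromosome 8 from 3707064 to 3720651) had 755, 141, 511 and 723 normalized counts in WT livers and 506, 997, 944 and 550 in MøFoxO1-KO livers. MøFoxO1-KO replicates 27 and 28 were above every WT mouse, while replicates 26 and 29 were within the WT range. Its log2 fold change of 0.49 ± 0.44 (SE), from -0.48 to 1.46, was the highest of the set and was within the spread (edgeR, BH-adjusted P = 0.613). It was 0.18 without WT replicate 23, in which Clec4g was at 19.5% of the median of the other WT livers.

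Lyve1 (ENSMUSG00000030787, chromosome 7 from 110850607 to 110862953), the hyaluronan receptor, had 111, 31.5, 118 and 141 normalized counts in WT livers. MøFoxO1-KO livers had 158, 112, 122 and 122. Apart from WT replicate 23, the mice spanned 111 to 158 and the genotypes were interleaved. The log2 fold change was 0.36 ± 0.37 (SE), from -0.46 to 1.17, and 0.06 without that mouse (edgeR, BH-adjusted P = 0.67 and 0.918).

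Fcgr2b (ENSMUSG00000026656, chromosome 1 from 170958617 to 170976547) encodes the inhibitory Fc gamma receptor, which clears immune complexes in the sinusoids and is also carried by B cells and macrophages. It had 878, 172, 595 and 683 normalized counts in WT livers and 553, 798, 784 and 383 in MøFoxO1-KO livers. Both the highest and the lowest levels were in WT mice, and MøFoxO1-KO replicate 29 was the next to lowest. Its log2 fold change was 0.11 ± 0.41 (SE), from -0.8 to 1.03 (edgeR, BH-adjusted P = 0.918), and -0.19 without WT replicate 23. Fcgr2b is related in sequence to other Fc receptor genes, and how reads that match several genes were counted is not given in the sources used here.

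Oit3 (ENSMUSG00000009654, chromosome 10 from 59422958 to 59441778), a gene of sinusoidal endothelium in mouse liver, had 521, 88.5, 345 and 416 normalized counts in WT livers and 365, 404, 381 and 273 in MøFoxO1-KO livers. The 4 MøFoxO1-KO values lay inside the WT range. The log2 fold change was 0.05 ± 0.4 (SE), from -0.85 to 0.95, the one closest to 0 in the set (edgeR, BH-adjusted P = 0.96). Without WT replicate 23 it was -0.27, from -0.66 to 0.13 (edgeR, BH-adjusted P = 0.567).

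Pecam1, Cdh5 and Kdr are shared with endothelium of other vessels. Pecam1 (ENSMUSG00000020717, chromosome 11 from 106654217 to 106750628), which encodes the junctional adhesion molecule CD31, had 289, 83.6, 227 and 216 normalized counts in WT livers and 228, 242, 241 and 254 in MøFoxO1-KO livers. The MøFoxO1-KO livers were tightly grouped at 241 ± 10.6 (SD, n = 4) and the WT livers spread around them at 204 ± 86.3 (SD, n = 4). Pecam1 had a log2 fold change of 0.24 ± 0.29 (SE), from -0.41 to 0.9, and of -0.02 without WT replicate 23 (edgeR, BH-adjusted P = 0.724 and 0.976).

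Cdh5 (ENSMUSG00000031871, chromosome 8 from 104101625 to 104144502), which encodes VE-cadherin of endothelial junctions, had 363, 136, 308 and 336 normalized counts in WT livers and 318, 382, 361 and 429 in MøFoxO1-KO livers. MøFoxO1-KO replicates 27 and 29 were above every WT mouse and replicates 26 and 28 were not. Cdh5 had the smallest P of the set, with a log2 fold change of 0.38 ± 0.26 (SE), from -0.2 to 0.96, an unadjusted P of 0.173 and an adjusted P of 0.5 by edgeR with BH adjustment. The exact two-sided permutation test of its normalized counts gave P = 0.143, where 4 mice against 4 allow none below 0.0286. Without WT replicate 23 its log2 fold change was 0.15 (edgeR, BH-adjusted P = 0.674). Pecam1 and Cdh5 kept a narrow ratio in every mouse, with log2 ratios of Pecam1 to Cdh5 counts of -0.33, -0.7, -0.44 and -0.64 in WT and -0.48, -0.66, -0.58 and -0.75 in MøFoxO1-KO livers.

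Kdr (ENSMUSG00000062960, chromosome 5 from 75932827 to 75978458), the main signalling receptor for VEGF-A, had 695, 165, 485 and 532 normalized counts in WT livers and 508, 551, 693 and 382 in MøFoxO1-KO livers. The highest WT and the highest MøFoxO1-KO levels were nearly equal, and the lowest MøFoxO1-KO level was again in replicate 29. The log2 fold change of Kdr was 0.19 ± 0.35 (SE), from -0.6 to 0.97, and it was -0.1 without WT replicate 23 (edgeR, BH-adjusted P = 0.833 and 0.878).

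Cd34 (ENSMUSG00000016494, chromosome 1 from 194938819 to 194961279), a sialomucin of capillary endothelium and of blood progenitors, was the only gene of the set with a lower mean in MøFoxO1-KO livers. Raw counts were low, at 35, 12, 42 and 47 in WT livers and 0, 8, 27 and 38 in MøFoxO1-KO livers. The 0 in MøFoxO1-KO replicate 26 allows up to 3 counts in that library, or 0.166 CPM, for counting error only. After normalization the mean was 32.5 ± 15.0 (SD, n = 4) for WT mice and 19.4 ± 18.7 (SD, n = 4) for MøFoxO1-KO mice, with overlap. The log2 fold change was -0.75 ± 0.8 (SE), with a wide interval from -2.54 to 1.04 (edgeR, BH-adjusted P = 0.685). Dropping WT replicate 23 gave -1.02 and dropping the mouse with 0 counts gave -0.32 (edgeR, BH-adjusted P = 0.643 and 0.81). Both the low counts and the spread between MøFoxO1-KO mice, from 0 to 42.5 normalized counts, stood behind this interval, and the standard error was 0.56 without the mouse at 0. Pecam1 and Cdh5 in the same mouse were at 228 and 318 normalized counts. Cd34 is also expressed by fibroblasts, and 8 fibroblast and mesothelial markers summed to 210 normalized counts in replicate 26, against 197 to 616 in MøFoxO1-KO and 350 to 799 in WT livers, and their part in the Cd34 values was not tested.

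**Figure D1:**
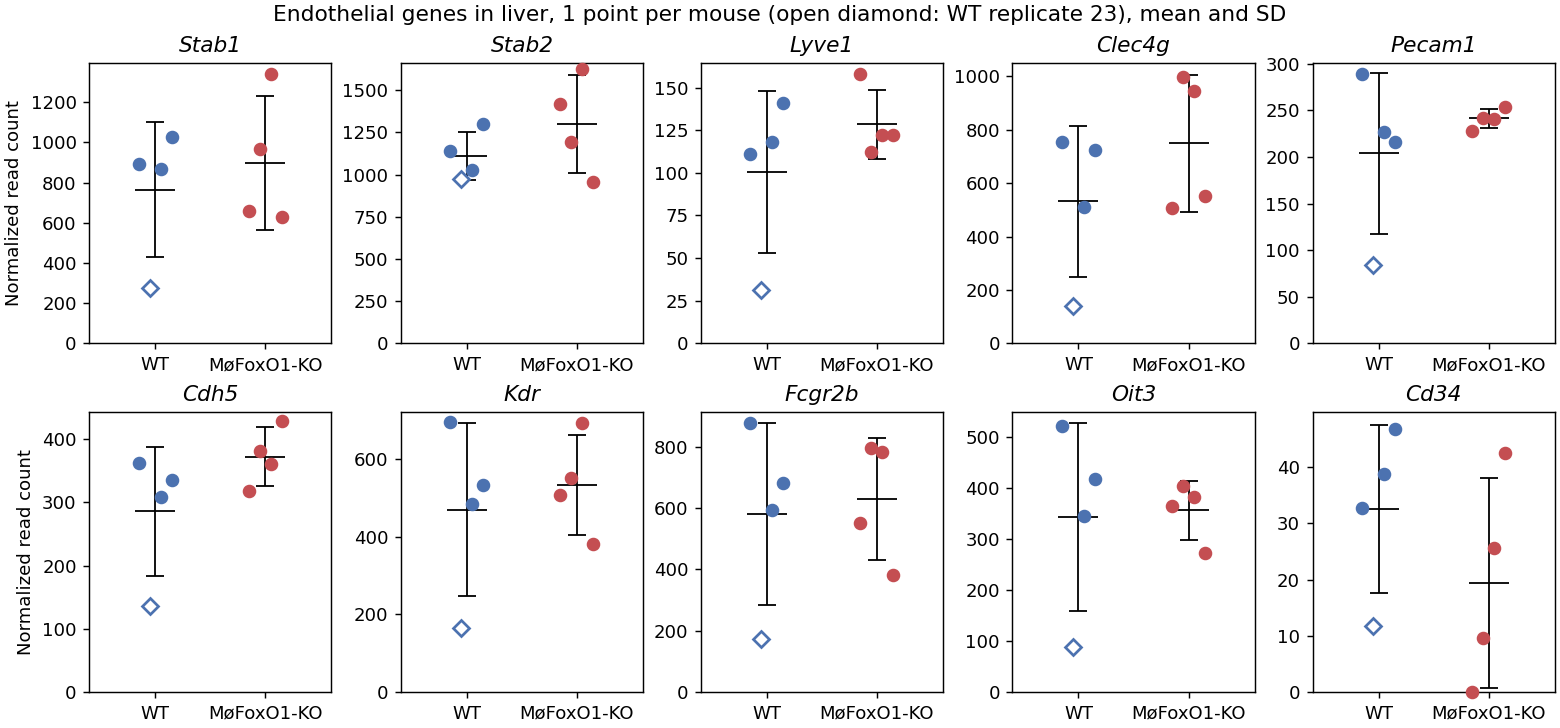
Normalized read counts (vertical axes, linear, from 0) of the 10 endothelial genes in WT and MøFoxO1-KO livers, with 1 point per mouse, an open diamond for WT replicate 23, and bars for mean and SD. The genotypes overlap in every panel, the diamond is the lowest WT point in every panel, and only for Stab2 is it close to the other WT mice.

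Taking the 10 genes as a group, edgeR called 0 of 10 at both thresholds, where it called 0.188% of all tested genes, and 0 of 10 at an adjusted P under 0.05 alone, where the share was 0.294% (BH-adjusted). At an unadjusted P under 0.05 the count was also 0 of 10, against 16.7% of all tested genes. Groups did not overlap for 0 of 10, against 9.71% of tested genes. DESeq2's Wald test had 0 of 10 at an adjusted P under 0.05 and 0 of 10 at an unadjusted P under 0.05, where 4.42% and 17.5% of its tested genes were. By limma-voom the counts were 0 of 10 at both limits as well, against 0.181% and 16.1% of genes. Permutation P values of the 10 genes lay between 0.143 and 0.886 (exact, two-sided).

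The 9 genes other than Cd34 had positive log2 fold changes, with a median of 0.23 over all 10, beside a median of -0.01 and 48.3% positive values over all tested genes. This direction depended on single mice, most of all on WT replicate 23. With that mouse left out, 4 of the 10 values were positive and 6 negative, with a median of -0.03. The 4 that stayed positive were those of Stab2, Lyve1, Clec4g and Cdh5. Without MøFoxO1-KO replicate 28, 7 were positive and 3 negative, with Stab1 and Fcgr2b turning sign and a median of 0.08, and without WT replicate 22 the median was 0.39. In the fit without WT replicate 23, 0 of 10 genes had an adjusted P under 0.05 in edgeR (0.258% of genes, BH-adjusted), 0 of 10 had an unadjusted P under 0.05 (13.1% of genes), and for 0 of 10 did the groups not overlap (12.5% of genes). The intervals were then narrower for 8 of the 10 genes, all but Stab2 and Cd34, and for Pecam1 the interval of the log2 fold change was -0.32 to 0.29 and for Cdh5 -0.14 to 0.44.

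**Figure D2:**
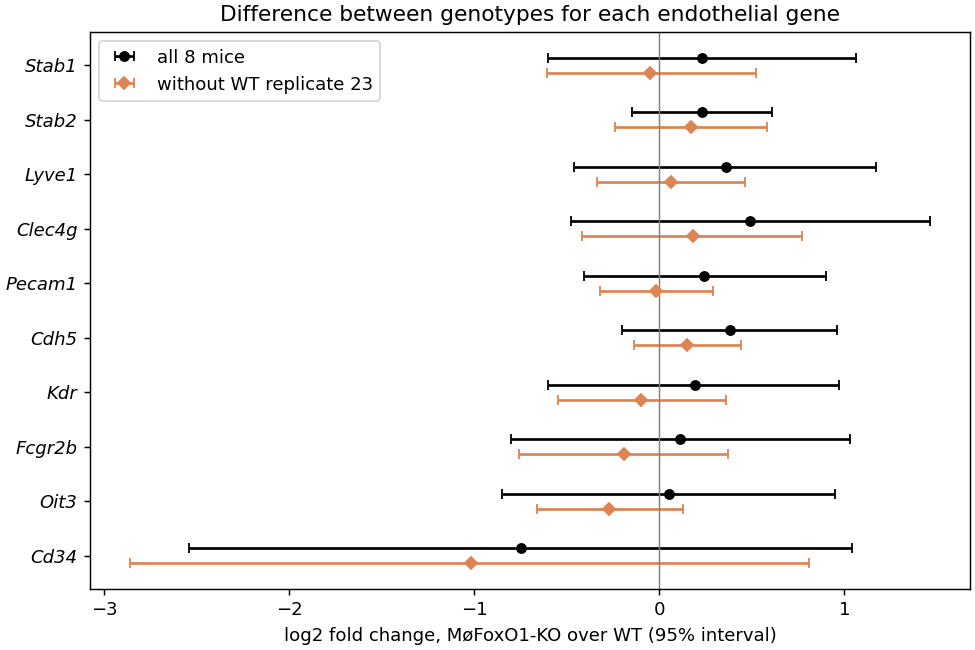
Log2 fold changes of MøFoxO1-KO over WT livers (horizontal axis) for each gene, with 95% intervals, from all 8 mice (black circles) and without WT replicate 23 (orange diamonds). All 20 intervals include 0, and every diamond lies to the left of its circle.

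Levels of the 10 genes were compared with each other per kilobase of exon. Clec4g had the highest level, at 260 ± 112 normalized counts per kilobase (SD, n = 8), followed by Stab2 at 138 ± 26.7, Oit3 at 125 ± 45.4 and Fcgr2b at 105 ± 40.7. Cdh5 at 82.6 ± 21.8, Stab1 at 80.8 ± 30.7, Kdr at 55.5 ± 19.0, Lyve1 at 44.0 ± 14.3 and Pecam1 at 35.7 ± 9.69 came next, and Cd34 was lowest at 3.56 ± 2.35. Neighbours in this order differed by less than the SD over mice, except Clec4g and Stab2, and Pecam1 and Cd34. Within mice, Oit3 was above Fcgr2b and Stab1 above Kdr in 8 of 8, and Clec4g was above Stab2 in 7 of 8, with WT replicate 23 as the exception. The lowest Pecam1 level per kilobase of any mouse (13.4) was above the highest of Cd34 (6.42). Every other gene was also above Cd34 in every mouse on this scale.

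WT replicate 23 was the lowest WT mouse for 10 of 10 genes, and 9 of the 10 were below 50% of the median of the other WT livers, where 9.92% of all tested genes were. In the other 7 mice 2.54 to 4.9% of tested genes were below 50% of the median of their group, with at most 1 of the 10 endothelial genes. As percentages of the median of the other WT livers, Clec4g was at 19.5, Oit3 at 21.3, Fcgr2b at 25.2, Lyve1 at 26.6, Cd34 at 30.4, Stab1 at 31, Kdr at 31.1, Pecam1 at 36.8, Cdh5 at 40.3 and Stab2 at 85.6. The range of the 9 low genes thus covered both the sinusoidal markers and the junction genes shared with other vessels.

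Other endothelial genes, from lists written for this comparison, were also low in that mouse. The median level relative to the other WT livers was 35.7% for 19 tested other sinusoidal genes, 38.2% for 29 pan-endothelial genes and 62.2% for 14 genes of continuous capillaries and large vessels. In these 3 lists 41 of 62 genes were below 50%, among them the sinusoidal nuclease gene Dnase1l3 at 17.4% and the capillary lipase anchor Gpihbp1 at 19.4%. There were 9 of 62 above 70%, of which 5 were in the list of continuous capillaries and large vessels. The 9 included the transcription factor genes Gata4 at 101% and Tal1 at 120%, the sphingosine 1-phosphate receptor S1pr1 at 141% and the von Willebrand factor gene Vwf at 89.8%. Tal1 was weakly counted, at 18.5 to 28.5 normalized counts over all mice. The part of other liver cells in these values was not tested. The single genes named in this paragraph were chosen after their values were seen.

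Medians of several other marker lists were also low in WT replicate 23, but not all to the same degree. The median of 6 tested B cell markers was at 19.2% of the other WT livers, that of 4 platelet markers at 33.8%, of 5 cholangiocyte markers at 44.2%, of 10 hepatic stellate cell markers at 56.8% and of 12 Kupffer cell markers at 67.7%, while that of 8 hepatocyte markers was at 125%. The Kupffer cell median was lower in MøFoxO1-KO replicates 26 and 28, at 56.9% and 39.7% of the other MøFoxO1-KO livers. It was 176% and 279% in replicates 27 and 29. The 7 B cell markers summed to 43.3 normalized counts in WT replicate 23. The other WT livers had 170 to 300 and MøFoxO1-KO livers 166 to 388. In WT replicate 23 the 5 tested cholangiocyte markers spanned log2 levels of -3.0 to 0.87 relative to the other WT livers. The 6 cholangiocyte markers summed to 1313 normalized counts there, against 1343 to 1728 in the other WT and 983 to 1498 in MøFoxO1-KO livers. The 8 hepatocyte markers summed to 1485010 there, against 1036480 to 1216071 in the other WT and 1235368 to 1825186 in MøFoxO1-KO livers, so it lay above the other WT mice and inside the MøFoxO1-KO range. None of the B cell, Kupffer, stellate, cholangiocyte or hepatocyte markers was at 0 in any mouse. Their part in the endothelial values was not tested. Mitochondrial genes held 5.327% of the counts of WT replicate 23, within the range of 4.163 to 6.332% over all mice.

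**Figure D3:**
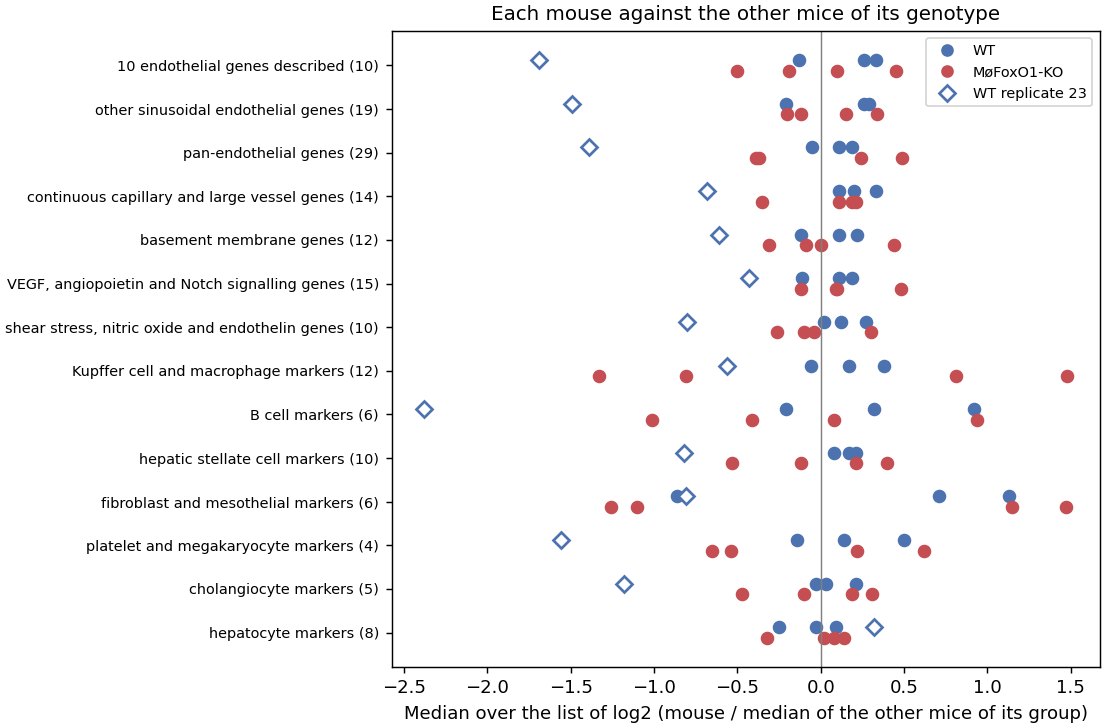
Each point is 1 mouse, placed on the horizontal axis at the median, over the tested genes of a list, of its log2 level relative to the median of the other mice of its genotype. The number of tested genes is in brackets, and lists with under 4 tested genes are not drawn. WT replicate 23 (open diamond) lies at -1.69 for the 10 endothelial genes, at -1.49 and -1.39 for the other sinusoidal and pan-endothelial lists, at -2.38 for B cell markers and at 0.32 for hepatocyte markers.

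Among MøFoxO1-KO mice the genes did not move as 1 block. Replicate 29 had the lowest MøFoxO1-KO level for Stab1, Stab2, Kdr, Fcgr2b and Oit3, and the highest for Pecam1, Cdh5 and Cd34. Replicate 28 was highest for Stab1, Stab2 and Kdr. Kupffer cell markers were most abundant in replicates 29 and 27, in which the 12 genes summed to 22070 and 14727 normalized counts against 5110 and 7355 in replicates 28 and 26 and 3988 to 6587 in WT livers. Stab1, Lyve1 and Fcgr2b, which macrophages can also express, had 629, 122 and 383 normalized counts in replicate 29 and 966, 112 and 798 in replicate 27. The part of macrophages in these values was not tested.

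Correlations between mice describe the same pattern. Over the 8 mice, which include WT replicate 23, the log2 levels of the 8 genes other than Stab2 and Cd34 had Pearson r between 0.8 and 0.98 in 28 pairs, with a median of 0.9. Over the 7 mice without WT replicate 23 these r lay between -0.62 and 0.92 with a median of 0.28, so the shared pattern rested largely on that mouse. Kdr, Fcgr2b and Oit3 stayed alike, with r of 0.98 for Kdr and Fcgr2b and 0.97 for Kdr and Oit3 over 8 mice and 0.92 and 0.84 without WT replicate 23. Their Spearman rho over 8 mice was 0.95 and 0.9. Stab2 had r between -0.34 and 0.63 with the other genes, and Cd34 between -0.34 and 0.28. All pairs share livers and libraries, and these r are given as a description.

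**Figure D4:**
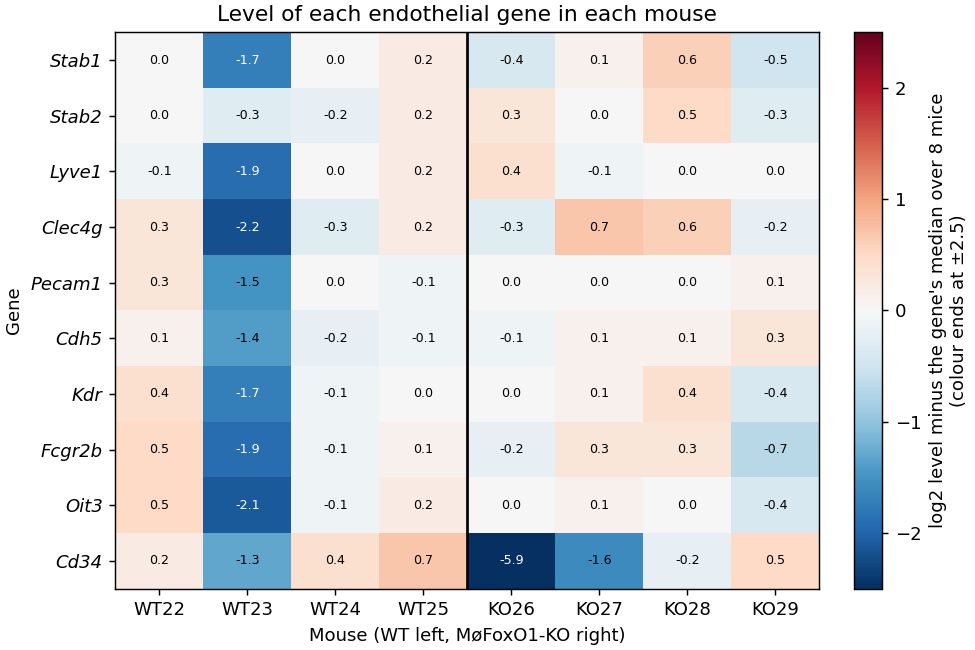
Log2 normalized counts (0.5 added) of each endothelial gene (rows) in each mouse (columns, WT replicates left and MøFoxO1-KO replicates right of the line) minus the median of the gene over the 8 mice. The column of WT replicate 23 is low for every gene but only slightly for Stab2, and the value of Cd34 in MøFoxO1-KO replicate 26, where its count was 0, lies beyond the colour scale.

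The genes whose pattern over the 8 mice was most like the mean of the 10, out of 10381 tested genes with a mean of at least 50 normalized counts, were Elk3 (r = 0.985), Tinagl1 (0.981), Ramp2 (0.98), Dysf (0.976) and Robo4 (0.976). Elk3 encodes an ETS factor, Tinagl1 a matrix protein, Dysf the membrane repair protein dysferlin, Ramp2 the partner of the adrenomedullin receptor and Robo4 an endothelial guidance receptor. Their Spearman rho lay between 0.9 and 0.98. With the 2 mice farthest from the median left out, WT replicate 23 and MøFoxO1-KO replicate 26, r was 0.79 for Elk3, 0.89 for Tinagl1, 0.79 for Ramp2, 0.88 for Dysf and 0.71 for Robo4. Of the 50 genes most like the mean, 10 were in the other endothelial lists, which is 20% of those 50 and 20% of the 50 list genes that could be ranked, and list genes made up 0.482% of all candidates. That count also rested on WT replicate 23, since 1 of the 50 most like genes over the other 7 mice (2% of those 50) was in these lists. Over the 7 mice without WT replicate 23, Dysf alone of these 5 was again among the 5 genes most like the mean.

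Other sinusoidal endothelial genes were compared between the genotypes in the same fit. Of 19 tested, 15 had a positive and 4 a negative log2 fold change. Their median of 0.26 was 0.01 when WT replicate 23 and 0.12 when MøFoxO1-KO replicate 28 was left out. An unadjusted P under 0.05 by edgeR was found for 0 of 19, against 16.7% of all tested genes. The smallest P values were those of Plxnc1, a plexin receptor, at a log2 fold change of 0.45, of Maf, a transcription factor gene, at 0.24, and of Mrc1, the mannose receptor, at 0.51 (edgeR, BH-adjusted P = 0.416, 0.417 and 0.424), which were 0.27, 0.13 and 0.25 without WT replicate 23. The authors also count CD206, the product of Mrc1, among macrophage markers. Mrc1 was highest in MøFoxO1-KO replicates 27 and 29, at 706 and 638 normalized counts, and the part of macrophages was not tested. In the pan-endothelial list 24 of 29 log2 fold changes were positive and 5 negative, with a median of 0.15 that was -0.09 without WT replicate 23, 0.08 without MøFoxO1-KO replicate 28 and up to 0.3 with 1 other mouse left out. Icam2, a leukocyte adhesion ligand, was the only 1 of the 29 with an unadjusted P under 0.05, at 52.5, 23.6, 57.2 and 54.8 normalized counts in WT and 62.3, 84.8, 79.7 and 76.1 in MøFoxO1-KO livers. Groups did not overlap for Icam2, the only 1 of the 29, against 9.71% of all tested genes. The log2 fold change of Icam2, 0.68 ± 0.29 (SE), did not pass the adjusted limit (edgeR, BH-adjusted P = 0.269). Nor did those of Calcrl at 0.46 and Egfl7 at 0.53, which were 0.28 and 0.26 without WT replicate 23.

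Genes of continuous capillaries and large vessels, the kind of endothelium that sinusoids come to resemble in capillarization, had positive log2 fold changes for 12 and negative ones for 2 of 14 tested, with a median of 0.11 that ranged from -0.01 without WT replicate 23 to 0.25 without WT replicate 24. None of the 14 had an unadjusted P under 0.05 by edgeR, where 16.7% of all tested genes did. The smallest P values were those of Gpihbp1 at a log2 fold change of 0.67, the gap junction gene Gja4 at 0.66 and the tetraspanin gene Cd9 at 0.41 (edgeR, BH-adjusted P = 0.457, 0.516 and 0.576). Without WT replicate 23 these were 0.34, 0.36 and 0.25, and Cd9 was at 0.11 without MøFoxO1-KO replicate 29. Basement membrane genes, which other cells of the liver also express, had positive log2 fold changes for 4 and negative ones for 8 of 12, with a median of -0.13 (-0.26 without WT replicate 23). Nid1, which encodes the laminin-binding protein nidogen-1, had 343, 403, 338 and 282 normalized counts in WT and 203, 147, 233 and 159 in MøFoxO1-KO livers. These groups did not overlap and WT replicate 23 was the highest, with a log2 fold change of -0.88 ± 0.18 (SE) that did not pass the adjusted limit (edgeR, BH-adjusted P = 0.0851). Lamc1, a laminin chain gene, also had groups that did not overlap, at a log2 fold change of -0.55, and Col4a1, a chain of type IV collagen, was at -0.48, or -0.31 without MøFoxO1-KO replicate 27 (edgeR, BH-adjusted P = 0.21 and 0.301 over all 8 mice). Groups did not overlap for 2 of the 12 basement membrane genes, against 9.71% of all tested genes.

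Ligands and co-receptors around Kdr were measured in the same livers. Of 15 tested genes of VEGF, angiopoietin and Notch signalling, 4 log2 fold changes were positive and 11 negative, with a median of -0.2 that was -0.22 when WT replicate 23 and -0.11 when MøFoxO1-KO replicate 27 was left out. The neuropilin genes, whose products are co-receptors for VEGF and semaphorins, had opposite signs. Nrp1 had 1221, 945, 1077 and 1024 normalized counts in WT and 1525, 1654, 1383 and 1369 in MøFoxO1-KO livers, and Nrp2 had 336, 418, 441 and 384 in WT and 99.7, 131, 292 and 120 in MøFoxO1-KO livers. Groups did not overlap for either gene, which made 2 of the 15, against 9.71% of all tested genes. The log2 fold changes of 0.47 ± 0.12 (SE) for Nrp1 and -1.29 ± 0.3 (SE) for Nrp2 did not pass the adjusted limit (edgeR, BH-adjusted P = 0.123 and 0.112). Vegfb, a ligand of the VEGF receptor FLT1, was at a log2 fold change of -0.5, or -0.33 without WT replicate 24 (edgeR, BH-adjusted P = 0.265 over all 8 mice). In these data Kdr itself, at 0.19, overlapped between the groups.

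Genes of shear stress, nitric oxide and endothelin had positive log2 fold changes for 7 and negative ones for 3 of 10 tested, with a median of 0.3, or 0.13 without WT replicate 23. Klf2, the flow-responsive transcription factor gene that is also expressed by lymphocytes and macrophages, had 238, 89.5, 182 and 186 normalized counts in WT and 243, 392, 253 and 407 in MøFoxO1-KO livers. The 4 MøFoxO1-KO mice lay above the 4 WT mice for Klf2, and groups did not overlap for 1 of the 10 genes, against 9.71% of all tested genes. The log2 fold change of Klf2, 0.89 ± 0.29 (SE), was 0.68 without WT replicate 23 and did not pass the adjusted limit (edgeR, BH-adjusted P = 0.187 and 0.256). Ednra, an endothelin receptor gene, was at 0.7 and Procr, the protein C receptor gene, at 0.99 (edgeR, BH-adjusted P = 0.246 and 0.393). Ednra was at 0.45 with MøFoxO1-KO replicate 26 left out, and Procr at 0.52 with replicate 29 left out. Over these 6 lists of endothelial or vascular genes, 0 of 99 tested genes were past an adjusted P of 0.05 by edgeR with BH adjustment, against 0.294% of all tested genes. By the same test 8 of the 99 had an unadjusted P under 0.05, against 16.7% of all tested genes.

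Markers of the cell types around the endothelium were counted in the same way. Of 12 Kupffer cell and macrophage markers 12 had a positive log2 fold change, with a median of 1.06 that became 0.97 without WT replicate 23 and fell to 0.58 when MøFoxO1-KO replicate 29 was left out, the mouse with the highest sum of these markers. An unadjusted P under 0.05 by edgeR was found for 8 of them, against 16.7% of all tested genes. Without WT replicate 23 it was found for 4 of them, against 13.1% of tested genes. None of the 12 markers passed the adjusted limit, the smallest P values being those of the scavenger receptor gene Marco at 5.18, the phosphatidylserine receptor gene Timd4 at 2.08 and the folate receptor gene Folr2 at 1.37 (edgeR, BH-adjusted P = 0.087, 0.0968 and 0.191). Marco was low in WT livers, at 18.7, 4.92, 81.2 and 49.8 normalized counts. MøFoxO1-KO livers had 737, 2712, 66.4 and 2119, so the Marco groups overlapped. Groups did not overlap for Timd4, the only 1 of the 12, against 9.71% of all tested genes. Folr2 was at 0.75 without MøFoxO1-KO replicate 29. Stellate cell markers had a median of 0.11, cholangiocyte markers of -0.23, fibroblast and mesothelial markers of -0.59, platelet markers of 0.47, B cell markers of 0.55 and the 2 tested genes of the lymphatic list of -0.04. Those 2 genes were Prox1 and Reln. Reln was also in the stellate cell list, and Prox1 was highest in WT replicate 23, at 2062 normalized counts. Their median thus does not describe lymphatic endothelium alone. Leaving out WT replicate 23 turned the median of the stellate cell markers to -0.08 and moved those of cholangiocyte, platelet and B cell markers to -0.45, 0.21 and 0.27. With each other mouse left out in turn, medians reached 0.92 for B cell markers without WT replicate 24, 0.18 for platelet markers without MøFoxO1-KO replicate 29, and -0.17 and -1.09 for fibroblast and mesothelial markers without WT replicate 25 and MøFoxO1-KO replicate 29. Hepatocyte markers had a median of 0.22, and Serpina1c, a gene of the alpha-1-antitrypsin family, had an adjusted P under 0.05 at a log2 fold change of 1.49 (edgeR, BH-adjusted P = 0.037), which became 1.35 without WT replicate 23 (adjusted P = 0.062 by the same edgeR test).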

How the data were processed

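Whole liver RNA of 4 WT and 4 MøFoxO1-KO mice was sequenced, and the authors deposited 1 table of raw counts per Ensembl gene, with exon lengths on GRCm38 (mm10). The submitters' processing notes name STAR and featureCounts. Tool versions, strandedness of the counting and the handling of multi-mapping reads are not given in the sources used here. Each of the 8 count columns matched 1 labelled mouse, and symbols came from GENCODE M21 (46005 of 46517 genes).

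Genes were filtered with filterByExpr (minimum count 10, minimum total 15), scaled by TMM and tested with edgeR 4.0.16 in R 4.3.3 (quasi-likelihood, no covariates, Benjamini-Hochberg). The common biological coefficient of variation was 0.256. Levels per kilobase used the deposited exon length. Correlations used log2 CPM with a prior count of 1, and ratios between genes used counts plus 0.5. Permutation tests used scipy 1.17.1, tables pandas 2.3.3 with numpy 2.4.6 in Python 3.11.15, and plots matplotlib 3.10.9. Promoters came from RefSeq (GRCm38.p6). Alternatives were DESeq2 1.42.0, limma-voom 3.58.1, edgeR's robust fit, other scalings and filters, and leaving out each mouse. The fits were tested on simulated data. Depth was 15253218 to 18025481 counts per mouse, and precision is lowest for weakly counted genes such as Cd34.

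The 10 genes and the 14 lists were chosen with earlier results of these data known. Every member was named, with the genes past an adjusted P of 0.05 of each list or otherwise its 3 smallest P values (printed for the endothelial and Kupffer lists, and past that limit for the others), and the 5 genes most like the members. Labels do not say whether mice shared a litter or batch. P values weigh the difference between genotypes against the spread between these mice, which edgeR estimates with information from all tested genes.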

Additional observations from a re-analysis of the deposited data

How the results depend on the processing

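In 159 values of the 10 genes under other settings, 0 were past the threshold and the lowest adjusted P was 0.421 (Benjamini-Hochberg). The sign turned in 11, of which 5 were without WT replicate 23. Leaving out 1 mouse gave log2 fold changes from -0.05 to 0.4 for Stab1, -0.02 to 0.46 for Pecam1, -0.1 to 0.44 for Kdr, -0.19 to 0.38 for Fcgr2b and -0.27 to 0.33 for Oit3. It gave 0 to 1 genes whose groups did not overlap, and the 1 was Pecam1 without WT replicate 22, where 13.1% of tested genes did not overlap. Scaling by library size alone moved the median of all tested genes to -0.17, gave -0.05 for Fcgr2b and -0.11 for Oit3, which are above that median, and left a median of 0.07 for the 10. For Cd34, limma-voom gave -1.85 against -0.75 by edgeR, and leaving out 1 mouse gave -1.45 to -0.32. The median of Prox1 and Reln, the 2 tested genes of the lymphatic list, moved to -0.22 when WT replicate 24 was dropped and to -0.26 when WT replicate 25 was. The fits without WT replicate 23 for the gene lists and correlations were chosen after seeing the data. No paired analysis was made, because the labels do not say which mice shared a litter or batch. Depth limits Cd34, with 0 to 47 counts per mouse.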
